A study of Mus musculus with 6 samples.

Results

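The cytosolic ribosomal proteins are the protein part of the ribosome, the particle that translates every messenger RNA (mRNA) in the cytoplasm. Their genes were taken from a count table of mouse proximal jejunum by name, as every row whose symbol starts with Rpl or Rps followed by a digit or p, and Rpsa. The 10 rows of Rps6k kinases and 6 rows with pseudogene names ending in -ps and a number were left out. This gave 86 genes of 23420 rows: 43 of the large subunit, 31 of the small subunit, the 3 stalk proteins Rplp0, Rplp1 and Rplp2, 7 paralogues with names ending in l, l1 or al, and 2 others. Rps19bp1, one of the 2 others, meets the name rule but encodes a binding partner of Rps19 and not a ribosomal protein. The other is Rps4y2, which the mouse annotation lists as Rps4l, a transcribed processed pseudogene.

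Bulk RNA sequencing was done on whole proximal jejunum of male ob/ob mice, which lack functional leptin and overeat, and of C57BL/6J wild type (WT) mice. There were 3 libraries in each group, 6 in all, and every library was made from RNA of 2 jejuna pooled. P-values therefore measure the spread between such pools. The age of these mice and their diet are not given in the labels, and no drug is named for either group. The ob mutation is present in every cell, so the genotype, the overeating and the obesity cannot be told apart here.

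Library totals lay between 14661981 and 18286080 counts. Markers of enterocytes, the absorptive cells of the gut lining, summed to between 65776 and 90983 CPM (counts scaled to a library of 1000000) in the 6 libraries. The hemoglobin genes Hba-a1, Hba-a2 and Hbb-b1 were listed at 0. Rpl26, a protein of every ribosome, was listed at 0 as well, so these zeros are not read as a measure of blood. Enterocyte markers summed to 80773 to 90983 CPM in ob/ob and 65776 to 75905 CPM in WT, with 3 of 12 genes higher and 0 lower in edgeR's test. B cell markers summed to 9.85 to 15.7 CPM in ob/ob and 19.2 to 118 CPM in WT, with 4 of 6 tested genes lower. Endothelial markers summed to 53.4 to 60.7 against 68.8 to 76.9 CPM and fibroblast markers to 317 to 378 against 399 to 422 CPM. Macrophage and dendritic cell markers summed to 118 to 153 against 154 to 211 CPM. Adipocyte markers overlapped in their sums, 92.7 to 101.2 against 90.4 to 219.8 CPM, with 1 of 6 lower and a median log2 fold change of -3.23. In bulk tissue, fewer cells of a type and less RNA per cell cannot be told apart, and the part that these cell types play in the values below was not tested.

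A ribosome has a small subunit, which reads the mRNA, and a large subunit, which joins amino acids and holds the exit tunnel. Most ribosomal proteins are needed in equal number per ribosome, and surplus copies are degraded. In mammals these mRNAs start with a 5′ terminal oligopyrimidine (TOP) tract, a C followed by further C or T bases at the first transcribed positions, through which the mTORC1 kinase and the protein Larp1 control their translation. In the gut, dividing crypt cells make many ribosomes to supply the renewal of the villi.

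The start sites of 5 genes are shown because the TOP tract, where present, lies at the start, and because Rps16, Rps26, Rpl28 and Rps27l are among the genes that the comparison below turns on. The sequences below run from 30 bases before to 30 bases from the start given by RefSeq (build GRCm38.p6). Where several starts are listed for a gene, the one with the longest run of C or T bases was taken. The capitals mark the longest such run in that window, or the first where several are equally long, as in Rps27l. Rpl4 and Rpl28 show long runs, Rps26 and Rps27l shorter ones, and Rps16 a run of 5. The marked runs of Rpl4, Rps27l and Rps16 lie wholly before the annotated start, that of Rpl28 spans it and that of Rps26 lies after it, so a marked run is not by itself a TOP tract.
Rpl4 (chr9:64173357-64173416, plus strand): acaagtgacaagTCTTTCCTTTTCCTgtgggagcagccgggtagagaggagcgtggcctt
Rpl28 (chr7:4792935-4792994, plus strand): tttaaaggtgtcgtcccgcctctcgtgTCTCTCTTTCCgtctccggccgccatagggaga
Rps26 (chr10:128626477-128626536, minus strand): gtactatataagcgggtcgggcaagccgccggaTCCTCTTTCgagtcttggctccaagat
Rps27l (chr9:66946056-66946115, plus strand): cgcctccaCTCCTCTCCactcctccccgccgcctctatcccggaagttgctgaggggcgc
Rps16 (chr7:28350659-28350718, plus strand): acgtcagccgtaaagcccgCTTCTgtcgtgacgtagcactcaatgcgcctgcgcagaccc
Of the 86 genes, 65 had an entry in the RefSeq promoter table. For a gene with several entries, in the family or outside it, a match in any of them was counted and the longest run was kept. An unbroken run of at least 8 C or T bases on the transcribed strand was present in this window in 35 of the 65 genes (53.8%), and in 25.8% of 27025 genes in the table. The string CTTTC, searched on the same strand and often lying within such runs, was found in 22 of the 65 (33.8%) and in 9.18% of all. The median length of the longest run was 9 bases in the family and 6 bases over all genes. A match describes these letters only. Rps16, which differed most between the groups, had no run of 8 bases in this window. Neither had Rps15 and Rplp0 (longest run 7 each) or Rpl36al (5), which are described below. The gene start of Rps16 in the GENCODE annotation, 28350652, lies before its window.

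The family was nearly flat between the genotypes. After scaling by the trimmed mean of M values (TMM), which sets the typical gene to no change, 79 of the 86 genes passed the filter of above 1 CPM in at least 3 libraries. Their median log2 fold change, ob/ob over WT, was 0.01 (quartiles -0.03 and 0.05), beside a median of -0.01 over all 13168 genes tested (quartiles -0.16 and 0.12). A total of 43 genes (54.4%) lay above 0 and 36 below, against 47.3% above 0 over all genes. Under scaling by library size alone, which moved the median of all genes to -0.13, 39 of the 79 signs turned, none of them in a gene past the threshold there. In 65 of the 79 genes (82.3%) the log2 fold change was between -0.1 and 0.1, against 37.3% of all genes tested. Among genes with a mean of at least 50 CPM the shares were 65 of 74 (87.8%) and 43.7%.

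In edgeR's quasi-likelihood test with Benjamini-Hochberg adjustment, 1 of the 79 genes passed an adjusted p of 0.05, Rps16, which was lower in ob/ob. Over all genes 5.67% passed, 3.77% higher and 1.91% lower, so the family's share of 1.27% was under the background. None of the 79 was higher by this test or by limma-voom, while 3 were higher at an unadjusted p under 0.05. DESeq2 and edgeR's likelihood ratio test each called 1 of the 79 higher, Rps27l. Over all 13168 genes tested they called 731 and 799 higher. At an unadjusted p under 0.05 there were 8 genes (10.1%), 3 higher and 5 lower, against 25.9% of all genes, 13.2% higher and 12.7% lower. The 3 ob/ob values lay entirely outside the 3 WT values in 7 genes (8.86%), against 32.0% of all genes (15.8% higher and 16.2% lower). Of the 7, Rps16, Rps29 and Rps26 were lower and Rps20, Rpl36al, Rpl7l1 and Rps27l higher.

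**Figure D1:**
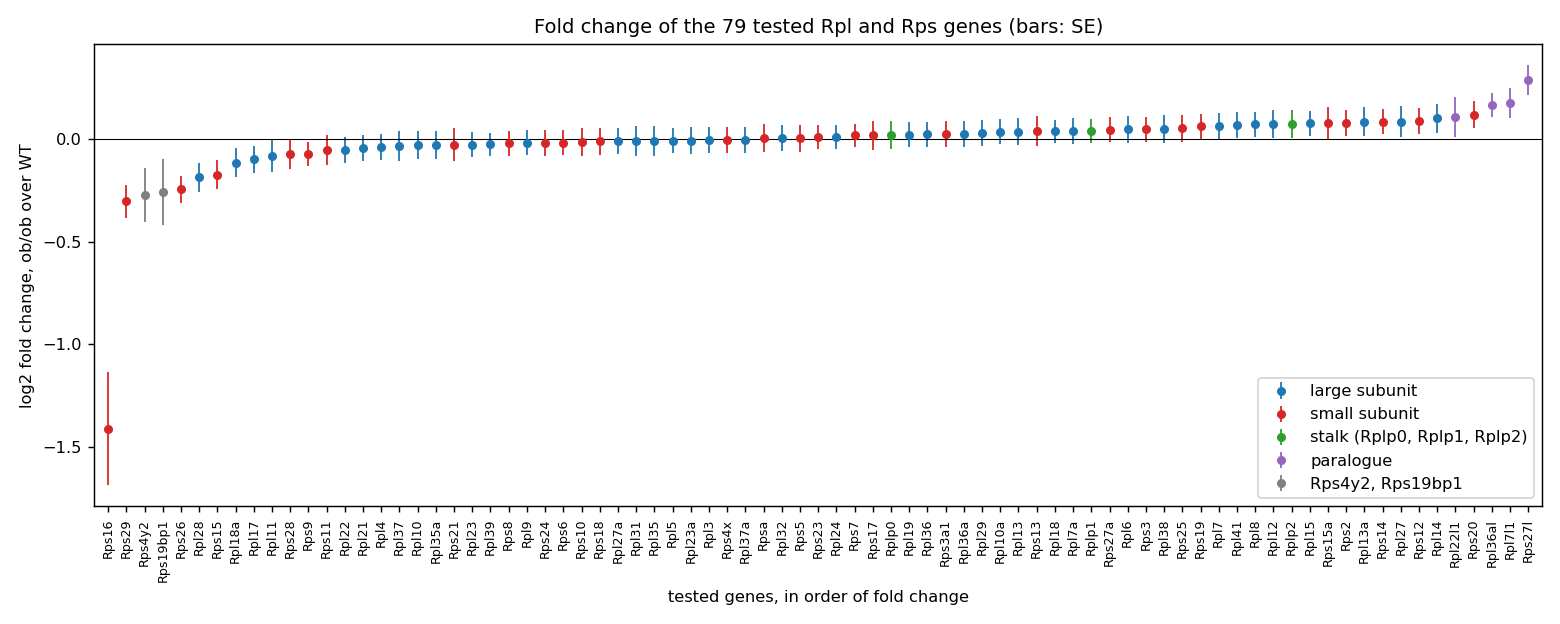
Log2 fold change, ob/ob over WT, of each of the 79 tested genes (points, coloured by subunit or class, bars are the standard error, SE), in order from the lowest to the highest. Rps16 stands apart at -1.41, 65 genes lie between -0.1 and 0.1, and the paralogues Rps27l, Rpl7l1 and Rpl36al are at the upper end.

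The plot of the fold changes shows how narrow the family was. The SE was under 0.1 on the log2 scale in 76 of the 79 genes, and 71 of them had at least 1000 counts in every library. The median SD within groups of the 79 genes was 0.0726 on the log2 scale. Over all genes tested it was 0.118, computed there on log2 of CPM plus 0.5. The family's median level was 206 CPM, against 20.2 CPM over all genes, and no SD was computed for genes of like level. The measurement error of most of these genes was therefore small beside a change of the size of Rps16.

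Rps16, a small-subunit protein whose tail reaches the site where transfer RNA is held, was the member that differed most. It had 254, 380 and 656 counts in the ob/ob libraries and 1435, 1092 and 1022 in the WT libraries, or 15.6, 23.1 and 39.0 CPM against 80.9, 72.0 and 54.3 CPM. Every ob/ob library was below every WT library. The WT mean of 69.1 ± 13.5 CPM (SD, n = 3) was 2.66 times the ob/ob mean of 25.9 ± 11.95 CPM (SD, n = 3). The log2 fold change was -1.41 ± 0.28 (SE), with an adjusted p of 0.0255 in edgeR's test.

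Set against its own family within each library, Rps16 differed in the same way. Its counts per 1000 counts of the other genes of the family were 0.922, 1.38 and 2.29 in ob/ob, against 4.75, 4.58 and 3.08 in WT. Its SD within groups, 0.51 on the log2 scale, was the highest of the 79 genes, and the next highest was 0.20. The call was lost without some single libraries: the adjusted p was 0.0632 without ob/ob library 1, 0.104 without ob/ob library 2 and 0.0554 without WT library 2, with log2 fold changes of -1.15, -1.33 and -1.38. In these runs the calls over all genes also fell, from 747 to 122, 194 and 295. Within WT, both Rps16 and the summed B cell markers were highest in library 1 and lowest in library 3, an order noticed after the values were seen. The B cell markers were at 118, 58.6 and 19.2 CPM there. Plasma cell markers (1241, 850 and 826 CPM) and fibroblast markers (422, 412 and 399 CPM) had the same order in WT. In ob/ob the B cell markers were at 9.85, 15.7 and 10.2 CPM, highest in library 2, while Rps16 was highest in library 3. Other marker sums rose from library 1 to 3 in ob/ob, as Rps16 did. They were those of macrophages and dendritic cells (118, 142 and 153 CPM), endothelium (53.4, 55.1 and 60.7 CPM) and goblet cells (15595, 15865 and 16827 CPM). In WT each of these sums was lowest in library 2, while Rps16 was lowest in library 3. The part of these cell types in the level of Rps16 was not tested.

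Rps16 lies on chr7:28350652-28353155 (GRCm38, plus strand, ENSMUSG00000037563.15). Of the 50-base windows of its annotated coding transcript, 41.6% occur in transcripts of other annotated genes, 89 in all, of which 6 are pseudogenes. At 47.5 CPM on average it ranked 75 of the 79 genes, and per kilobase of transcript its level of 42.8 CPM ranked 76. Both ranks were near the bottom of the family, although the protein is part of every ribosome. How reads that match several genes were counted is not stated in any source at hand, and the part of counting in this difference was not tested.

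**Figure D2:**
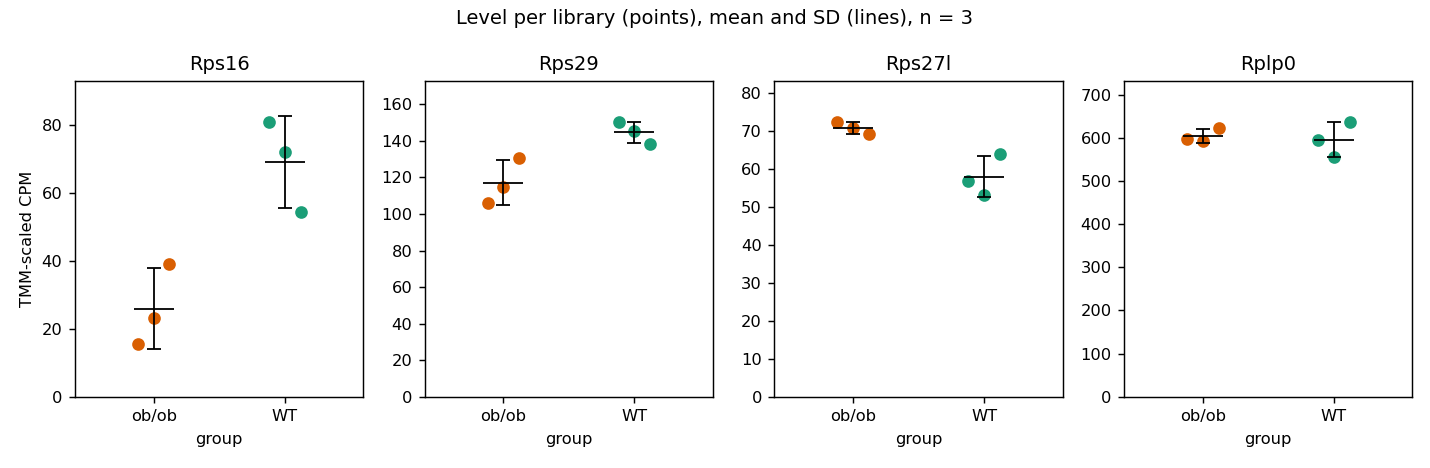
TMM-scaled CPM of Rps16, Rps29, Rps27l and Rplp0 in each library (points), with group mean and SD (lines, n = 3), on axes that start at 0. The groups do not overlap for Rps16 (15.6 to 39.0 against 54.3 to 80.9 CPM), Rps29 or Rps27l, and they overlap for Rplp0.

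The plot of the levels places Rps16 beside genes with smaller differences. Rps29, a zinc-binding protein of the small-subunit head, was at 106, 115 and 131 CPM in ob/ob and 150, 145 and 138 CPM in WT. The groups did not overlap, with a log2 fold change of -0.30 ± 0.08 (SE) and an adjusted p of 0.0595, past the threshold in DESeq2 (0.0239) and in edgeR's likelihood ratio test (0.0285), and 0.0402 to 0.165 with 1 library left out. Rps29 lies on chr12:69157722-69159186 (GRCm38, minus strand).

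Rps26, Rpl28 and Rps15 are named here after their values were seen, since they and the genes above make up the 5 lower ones at an unadjusted p under 0.05. Rps26, which lines the channel through which mRNA leaves the small subunit, was at 83.8, 89.8 and 92.1 CPM in ob/ob and 111, 98.2 and 106 CPM in WT (log2 fold change -0.25 ± 0.07 SE, adjusted p 0.0626). Rps26 passed the threshold in edgeR's likelihood ratio test (0.0477), with a minimum mean of 5 CPM (0.0496), with upper quartile factors (0.0392) and with library size alone (0.0183), and not in DESeq2 (0.0656) or without any 1 library (0.0660 to 0.175). Rpl28, a large-subunit protein that bacteria lack, was at 115, 118 and 131 CPM against 143, 128 and 143 CPM, and its groups overlapped (-0.19, adjusted p 0.144). Rps15, at the small-subunit head, was at 133, 139 and 153 CPM against 167, 149 and 163 CPM (-0.17, adjusted p 0.169). In all 5 genes the lowest ob/ob value was that of library 1 and the highest that of library 3, a pattern also noticed after the values were seen.

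In WT libraries 2 and 3 most genes of the family deviated in the same direction, and the spread of the family's level was wider among the WT libraries than among the ob/ob libraries. Measured as the deviation of each gene's log2 CPM from its own mean over the 6 libraries, the median over the 79 genes was 0.01, -0.01 and 0.01 in the ob/ob libraries and 0.01, -0.10 and 0.06 in the WT libraries. The number of genes above their own mean was 49, 33 and 53 of 79 in ob/ob and 48, 4 and 75 in WT. WT library 2 held the lowest value of 64 genes, and WT library 3 the highest of 40. WT library 2 also had the lowest total, 14661981 counts, the highest sum of adipocyte markers, 219.8 CPM against 90.4 to 101.2 CPM in the other 5, and the lowest sum of proliferation markers, 592 CPM against 629 to 837 CPM. The part of depth or of these cell types in its low family level was not tested. The median log2 fold change of the family was -0.04 without WT library 2 and 0.05 without WT library 3. Relative to the median of all genes it was 0.02 with all libraries, -0.03 without WT library 2 and 0.06 without WT library 3, so no direction is read from it. Scaling by library size alone or by upper quartile factors moved the family (to -0.11 and -0.03) and all genes (to -0.13 and -0.06) alike.

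**Figure D3:**
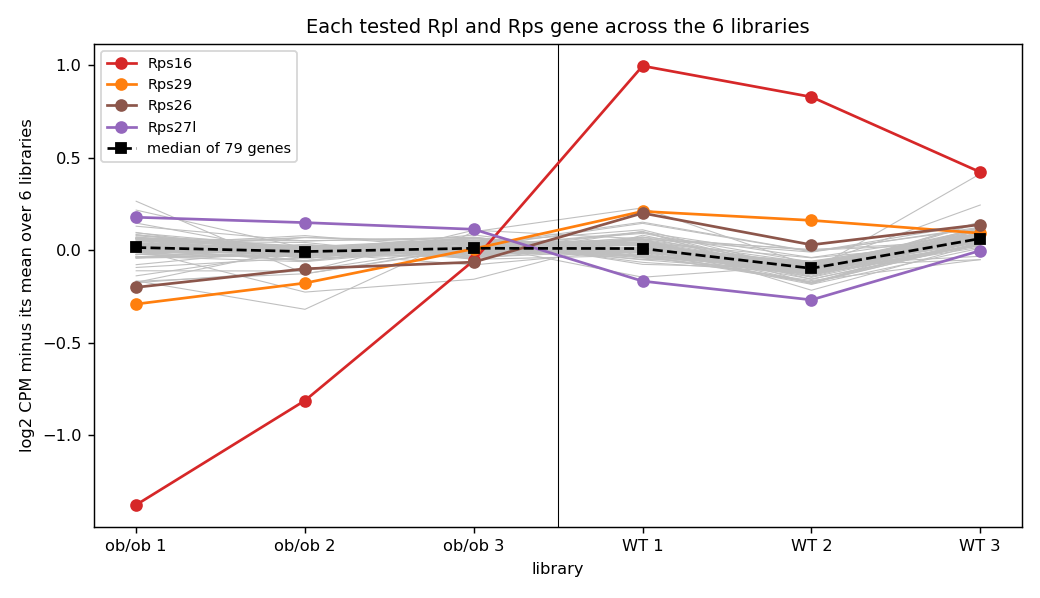
Log2 CPM of each of the 79 tested genes minus its own mean over the 6 libraries, with one line per gene (grey, with Rps16, Rps29, Rps26 and Rps27l in colour) and the median as black squares. The grey lines dip together in WT library 2, where the median is -0.10, and rise in WT library 3, where it is 0.06, while Rps16 runs from its lowest value in ob/ob library 1 to its highest in WT library 1.

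The family took 1.66%, 1.55% and 1.66% of all counts in the ob/ob libraries and 1.80%, 1.64% and 1.82% in the WT libraries. The means were 1.63% ± 0.0634 and 1.75% ± 0.103 (SD, n = 3 each), and the groups overlapped. As a percentage of the TMM-scaled library size the means were 1.69 ± 0.0156 and 1.69 ± 0.0968. The scaling factors were 0.927 to 0.980 in ob/ob and 1.03 to 1.06 in WT. The ratio of Rpl to Rps counts was 1.48 ± 0.00895 in ob/ob and 1.47 ± 0.0117 in WT, so the balance of the subunits overlapped between the groups as well.

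**Figure D4:**
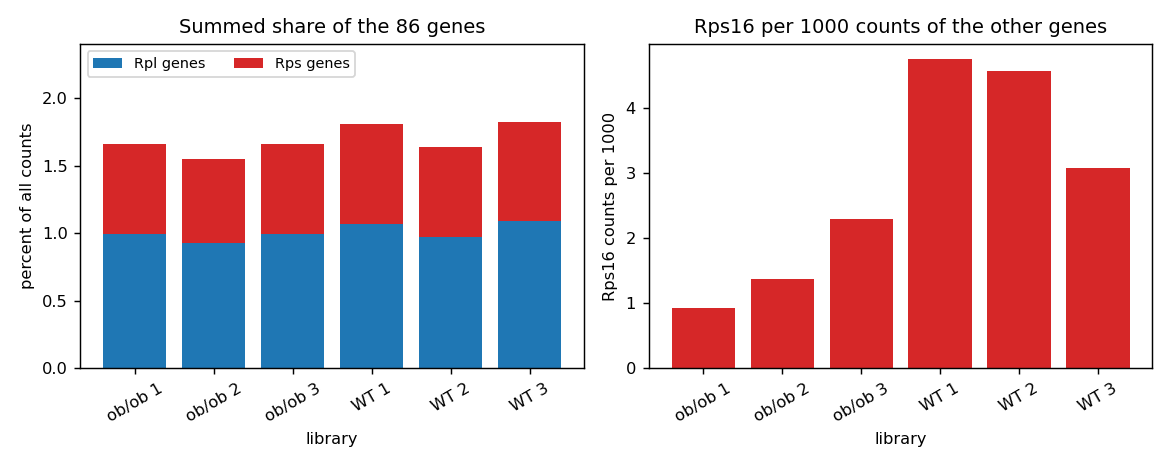
Left, percentage of all counts of each library taken by the Rpl genes (blue) and the Rps genes (red), stacked, for all 86 genes. Right, Rps16 counts per 1000 counts of the other genes of the family. The stacked share lies between 1.55% and 1.82% with overlapping groups, while Rps16 runs from 0.922 to 2.29 in ob/ob and from 3.08 to 4.75 in WT.

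The plot of the shares sets the sum of the family beside Rps16. By CPM, the most abundant genes were Rplp0 (a mean of 600 CPM), Rpl4 (525 CPM), Rps2 (465 CPM), Rpsa (463 CPM) and Rpl10 (401 CPM). Per kilobase of transcript, the scale that allows for length, the highest were Rps12 (757 CPM), Rpl41 (644 CPM), Rplp1 (617 CPM), Rpl10 (502 CPM) and Rps2 (483 CPM). The lowest on that scale were Rps19bp1 (6.495 CPM), Rps4y2 (29.1 CPM), Rpl7l1 (32.9 CPM) and Rps16 (42.8 CPM). Since the share of each transcript that other genes also hold runs from 0 to 95.1% over the family, and is 85.4% for Rps12, these orders describe the counts as deposited and not the levels of the mRNAs.

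The stalk of the large subunit, which recruits the elongation factors, did not differ detectably. Rplp0, its base and also one of the reference genes of the study's quantitative PCR, was at 597, 593 and 622 CPM in ob/ob and 596, 556 and 636 CPM in WT. Its log2 fold change was 0.02 ± 0.07 (SE), with an adjusted p of 0.887. Rplp1 and Rplp2, which form the flexible arms, had log2 fold changes of 0.04 and 0.07 and adjusted p of 0.701 and 0.520. All 3 signs turned under scaling by library size alone, to -0.10, -0.08 and -0.04, where the median of all genes tested was itself shifted to -0.13.

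The 40 tested large-subunit genes had a median log2 fold change of -0.00054, with 20 above 0 and 20 below, 0 called in either direction by edgeR, DESeq2 or limma-voom, and 1, Rpl28, at an unadjusted p under 0.05. Rpl4, a protein of the exit tunnel wall, was at 527, 515 and 511 CPM in ob/ob and 546, 500 and 549 CPM in WT (log2 fold change -0.04 ± 0.06 SE). Rpl10, which is added late and completes the large subunit, was at 390, 398 and 403 CPM against 412, 374 and 432 CPM (-0.03 ± 0.07 SE). The groups overlapped for both. Rpl5 and Rpl11, which carry the 5S ribosomal RNA and bind Mdm2 when free, had log2 fold changes of -0.01 and -0.08, with adjusted p of 0.942 and 0.540.

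The 30 tested small-subunit genes had a median of 0.0034, with 16 above 0 and 14 below. The quasi-likelihood test and limma-voom called 1 of them lower, Rps16, DESeq2 called 2 lower and the likelihood ratio test 3 lower. Over all 13168 genes these tests called 251, 213, 328 and 605 lower, in the same order. Rps2, which lies at the mRNA entry channel, was at 485, 468 and 477 CPM in ob/ob and 463, 424 and 469 CPM in WT (0.08 ± 0.06 SE, adjusted p 0.475), and its groups overlapped by a single library. Rpsa, at the surface of the small subunit and also known as a laminin receptor, was at 459, 471 and 461 CPM against 477, 424 and 487 CPM (0.0032 ± 0.07 SE). Rps6, the substrate of the S6 kinases that mTORC1 activates, had a log2 fold change of -0.02 and an adjusted p of 0.887. Rps20, also of the small subunit and named after its values were seen, was at 223, 221 and 223 CPM in ob/ob and 212, 188 and 215 CPM in WT (0.12 ± 0.07 SE, adjusted p 0.286), without overlap.

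The paralogues lay at the upper end. All 4 tested ones were above 0, with a median log2 fold change of 0.17, and they held ranks 1, 2, 3 and 5 of the 79 genes, with none past the adjusted threshold in edgeR's quasi-likelihood test and 3 at an unadjusted p under 0.05, where 5.67% and 25.9% of all genes stood. Rps27l, a paralogue of Rps27 that p53 is known to induce, was at 72.2, 70.8 and 69.0 CPM in ob/ob and 56.9, 53.0 and 63.7 CPM in WT, without overlap. Its log2 fold change was 0.29 ± 0.07 (SE) with an adjusted p of 0.0540, and the adjusted p was 0.0349 in DESeq2 and 0.0242 in edgeR's likelihood ratio test. Without WT library 3 the log2 fold change was 0.36 and the adjusted p 0.0310, while without each of the other 5 libraries the adjusted p was 0.103 to 0.148. With library size alone the log2 fold change was 0.17 and the adjusted p 0.146. Rps27l lies on chr9:66946086-66949516 (GRCm38, plus strand).

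Rpl36al, a paralogue of Rpl36a, was at 70.1, 66.3 and 67.2 CPM in ob/ob and 62.6, 57.2 and 61.8 CPM in WT (0.16 ± 0.06 SE, adjusted p 0.125). Its counts were 79.1%, 75.2% and 81.3% of those of Rpl36a in ob/ob and 74.6%, 70.9% and 68.5% in WT, without overlap. Rpl7l1, a paralogue of Rpl7, was at 49.99, 43.4 and 44.0 CPM against 38.9, 40.7 and 42.0 CPM (0.18 ± 0.07 SE, adjusted p 0.164), again without overlap. As a percentage of Rpl7 its counts were 12.1, 11.1 and 10.9 in ob/ob, against 10.2, 11.3 and 10.2 in WT, which overlapped. Rpl22l1, a paralogue of Rpl22, was at 36.4, 27.7 and 30.5 CPM against 30.1, 28.5 and 29.2 CPM (0.11 ± 0.10 SE, adjusted p 0.525), and its sign turned without ob/ob library 1 and under scaling by library size alone (-0.01 in both). Rps4y2, the annotated pseudogene, was at 22.7, 19.4 and 20.4 CPM in ob/ob and 24.0, 21.0 and 30.2 CPM in WT (-0.27 ± 0.13 SE, adjusted p 0.222).

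The other 7 of the 86 genes were below the filter. Rpl10l and Rpl39l, which are known mainly from testis, had 0 counts in every library, and Rpl3l, a form of Rpl3 found in muscle, had 1 count in each of 2 libraries. At 0 counts, a floor of 3 counts corresponds to between 0.164 and 0.205 CPM, and covers counting error only. Rpl26, Rpl30, Rpl34 and Rps27 encode proteins of every ribosome and yet were listed near 0. Rpl26 was listed at 0 in all 6 libraries, Rpl30 had 4 counts in all, Rpl34 had 3 to 7 counts per library and Rps27 had 5 to 11. Of the 50-base windows of their transcripts, 71.3%, 76.4%, 48.9% and 98.6% also occur in another gene, against a median of 60.0% over the 79 tested genes (range 0 to 95.1%), of which 29 were above 70%. The part of sequence sharing in these low counts was not tested.

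The fold changes were set beside sequence features of the transcripts. Over the 79 genes, Pearson's r and Spearman's rho of the log2 fold change were -0.12 and -0.07 with GC content, 0.02 and 0.02 with transcript length, 0.11 and 0.09 with the share of windows found in another gene, and 0.28 and 0.11 with mean log2 CPM. Without Rps16, r was -0.28 with GC content and 0.15 with transcript length, and rho was -0.08 and 0.04, so these values of Pearson's r were larger in size without that 1 gene. The relation with mean log2 CPM was not computed without Rps16. These are descriptions across genes of the same 6 libraries, and genes are not independent replicates. At least 1 window matched a pseudogene in 76 of the 79 genes, and the share of windows found in another gene was low in some, at 2.96% in Rps3 and 7.57% in Rps20. These shares, like the levels per kilobase, depend on the transcript used for each gene, the one with the longest coding sequence. For Rps3 and Rps20 it has 1908 and 3706 bases, of which 729 and 357 are coding.

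Genes that work with the family were read from lists chosen for their function, in the same fit. Gnb2l1 (Rack1), which encodes a scaffold protein of the small subunit, had a log2 fold change of 0.06 (adjusted p 0.633), and Fau, which encodes a small-subunit protein fused to a ubiquitin-like domain, one of 0.03 (adjusted p 0.800). Of 18 elongation factors and other mRNAs known for a TOP tract, 0 were called by edgeR, and DESeq2 called 1 lower, against 328 of all 13168 genes. The median log2 fold change of the 18 was -0.05. In edgeR 3 were at an unadjusted p under 0.05, against 25.9% of all genes. The 3 were Eif4b (-0.23, adjusted p 0.0645), Eef1b2 (-0.16, 0.169) and Nap1l1 (-0.27, 0.183).

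Ribosome biogenesis genes, whose products process ribosomal RNA and assemble the subunits in the nucleus, were above 0 in 28 of 35, with a median of 0.12, beside 47.3% above 0 and a median of -0.01 over all genes. In edgeR's quasi-likelihood test 1 of the 35 passed the adjusted threshold, against 5.67% of all genes, and 6 were at an unadjusted p under 0.05, against 25.9%. Eif6, which keeps the new large subunit from joining the small one too early, was at 244, 244 and 248 CPM in ob/ob and 175, 152 and 171 CPM in WT. Its log2 fold change was 0.56 ± 0.07 (SE) and its adjusted p 0.00576, and it passed under every alternative run. Nmd3, an export adaptor of the large subunit, and Ebna1bp2, a large-subunit assembly factor, were at -0.22 (adjusted p 0.0945) and 0.23 (0.113). Of 14 genes of RNA polymerase I and its factors, which transcribe ribosomal RNA, 0 were called by edgeR, DESeq2 or limma-voom and 0 were at an unadjusted p under 0.05 in edgeR, with a median of 0.05.

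Of 19 genes of the mTORC1 pathway and TOP mRNA control, edgeR's quasi-likelihood test called 1 higher and 1 lower, against 3.77% and 1.91% of all genes, and 5 were at an unadjusted p under 0.05, against 25.9% of all genes. Eif4ebp1, a repressor of cap-dependent translation that mTORC1 inactivates, was at 17.9, 21.0 and 16.0 CPM in ob/ob and 9.18, 10.2 and 10.8 CPM in WT (0.86 ± 0.12 SE, adjusted p 0.0105). Tsc1, part of the complex that holds mTORC1 inactive, was at 34.0, 32.4 and 35.5 CPM against 41.6, 44.1 and 42.8 CPM (-0.33 ± 0.06 SE, adjusted p 0.0197), and its adjusted p was 0.0690, 0.0738 and 0.0590 without ob/ob library 1, ob/ob library 2 or WT library 2. Max, the partner of the Myc transcription factor, had the smallest p after these, at 0.21 with an adjusted p of 0.0864.

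Of 10 genes of the p53 response, which free ribosomal proteins are known to trigger through Mdm2, edgeR's quasi-likelihood test called 1 higher and 0 lower, with 2 at an unadjusted p under 0.05, against 3.77% higher and 1.91% lower over all genes. DESeq2 and limma-voom called the same numbers. The likelihood ratio test called 1 higher and 1 lower, against 799 and 605 of all 13168 genes. Cdkn1a, an inhibitor of the cell cycle, was at 90.7, 107 and 93.4 CPM in ob/ob and 68.3, 73.6 and 70.4 CPM in WT (0.45 ± 0.07 SE, adjusted p 0.0141), and it passed without each library in turn. Trp53, which encodes p53, was at -0.40 with an adjusted p of 0.0637, and 0.0237 in the likelihood ratio test, and Phlda3, a p53 target, at -0.70 with an adjusted p of 0.298. The median of the list was -0.08. Crypt stem cell markers summed to 269 to 352 CPM in ob/ob and 256 to 326 CPM in WT, and proliferation markers to 629 to 837 and 592 to 737 CPM, with 0 of 5 and 0 of 10 called by edgeR, and both sums overlapped between the groups.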

How the data were processed

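RNA of washed proximal jejunum was isolated with TRIzol and sequenced in bulk. According to the submitters' processing notes and the study's methods, the authors aligned reads to mouse build mm10 with TopHat2 and counted them per gene with HTSeq 0.6p1. The deposited values used here are these raw counts, with no normalization. The strand setting of the counting was not given in the sources used here. Overlapping genes (such as Rpl28 and Ube2s) are therefore uncertain. The authors' normalized values and their own comparisons (fold changes and p-values) were not used. Per-sample values in 42 other columns were left aside, and 12 of these columns belong to samples that are not part of the series.

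Counts were scaled by TMM and tested with edgeR 4.0.16 (quasi-likelihood F-test, two-sided, R 4.3.3) on the group alone, for genes above 1 CPM in at least 3 libraries, with Benjamini-Hochberg adjustment over all genes and a threshold of 0.05. The SE is the log2 fold change over the square root of F. Alternatives used other scalings and filters, DESeq2 1.42.0, limma 3.58.1, edgeR's likelihood ratio test, a replicate block and each library left out. The main quasi-likelihood fit was tested on simulated data, where it recovered 68% of the smaller and 98% of the larger fold changes put in. Of its 179 calls there, 13 were false. The other fits were not tested in this way. The members, the gene lists and the tests were chosen with earlier results of these data known. The lists are therefore not independent evidence.

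Genes named in the text are those past the threshold, the 5 most abundant, the stalk genes, tested paralogues, the 3 highest and 3 lowest fold changes, the gene with the largest SD within groups and up to 3 genes per list with the smallest p. Others are named for their role or as stated. Symbols were matched to GENCODE M21 (GRCm38), 85 of 86 by symbol and Rps4y2 by a former symbol. Promoter sequences are from RefSeq. Protein sequences were not used here. 1 gene of the lists is not reported here.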

Additional observations from a re-analysis of the deposited data

How the results depend on the processing

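Rps16 was lower in ob/ob under every alternative run, with log2 fold changes from -1.15 to -1.84, and passed the threshold in all but 3 of them, which each left out 1 library (-1.15, -1.33 and -1.38). The number of family genes past the threshold was 1 as reported, 7 with scaling by library size alone, 3 with upper quartile factors, 2 with a minimum mean of 5 CPM, 3 with DESeq2, 4 with the likelihood ratio test, 8 at an unadjusted p of 0.05 and 0 to 2 with 1 library left out. Over all genes, 747 became 1735 (328 higher, 1407 lower) with library size alone. With DESeq2 it became 1059 (731 higher, 328 lower) and with the likelihood ratio test 1404 (799 higher, 605 lower). At an unadjusted p of 0.05 it was 3409, and with 1 library left out 122 to 674. A further alternative scaled each library to the family genes other than Rps16, Rps29, Rps26, Rps15, Rpl28, Rps27l, Rpl36al and Rpl7l1, and 425 passed. Both this scaling and the genes left out of it were chosen after seeing the data. Upper quartile factors gave 390 higher and 468 lower, against 496 and 251. Library size alone moved the median of all genes to -0.13 and that of the family to -0.11, a difference of 0.03. With 1 library left out the family median was -0.04 to 0.05. The summed share in ob/ob was 1.69% of the TMM-scaled size, and without the 5 most abundant genes 1.39% in ob/ob and 1.499% in WT. With 1 library left out it was 1.61% to 1.66% in ob/ob and 1.72% to 1.81% in WT.

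Of the 79 family genes, 39 changed sign with library size alone and 19 with upper quartile factors, none of them past the threshold there. Among the genes named by the rule, those that changed sign with library size alone were Rpl22l1 (-0.0078), Rplp0 (-0.097), Rplp1 (-0.075), Rplp2 (-0.044), Rps2 (-0.039) and Rpsa (-0.11), and with upper quartile factors Rplp0 (-0.022), Rplp1 (-0.00025) and Rpsa (-0.038). Rpsa was also at -0.015 with a minimum mean of 5 CPM. It was at -0.011 when scaled to the family genes as described above, a sum that includes Rpsa. With 1 library left out, the range was -0.088 to 0.016 for Rpl10, -0.0083 to 0.19 for Rpl22l1, -0.030 to 0.068 for Rplp0 and -0.057 to 0.041 for Rpsa. Rps29 passed the threshold with library size alone (-0.42), upper quartile factors (-0.34), DESeq2, the likelihood ratio test and without ob/ob library 3 (-0.39). The causes of these shifts were not tested.

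Same-numbered libraries showed no common deviation (correlations of -0.08, 0.07 and -0.02, against -0.10 to 0.12 for the other pairs). With deviations from means of 3 libraries, this check cannot exclude a weak pairing. The main fit used no pairing. With the replicate block, 1 family gene passed (Rps16, -1.46), 730 genes passed over all and the family median was 0.01. The planned share without mitochondrially encoded genes was not run, since the table holds 0 such rows. Identity between paralogue proteins was not computed. With 3 libraries per group and counts of at least 1000 in every library for 71 family genes, the spread between libraries and not counting error limits most values.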

Other observations

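Among the 6 rows left out for pseudogene names, Rps15a-ps4 had 3 to 9 counts per library, Rps15a-ps6 had 15 to 20 and Rps19-ps3 had 8 to 21, while Rpl31-ps12 had 1 count in 1 library and Rpl34-ps1 and Rplp2-ps1 had 0 counts in every library.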
